A study of Homo sapiens with 4 samples.

Results

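The genes of the human proteasome were examined for binding of CTCF, the zinc finger protein found at insulators, chromatin loop anchors and many promoters. They were taken as the protein-coding autosomal genes whose symbol is PSMA, PSMB, PSMC, PSMD, PSME or PSMG followed by a number, leaving out PSMB8 and PSMB9. The rule found 44 genes among 19126 protein-coding autosomal genes. PSMD10 lies on chromosome X and was left out. The assay was ChIP-seq, in which DNA bound by a protein is precipitated with an antibody and sequenced, and the cells were MDA-MB-435, a long-established human line that the labels call melanoma. The library described here came from asynchronous cells with no treatment named in the labels, precipitated with a rabbit antibody against CTCF, and is replicate 1 of its group. The series lists 4 samples, and the second asynchronous replicate and the 2 mitotic samples, precipitated with an antibody against pT431 CTCF, were not analysed here. No value below therefore has a replicate check, no test between conditions was possible, and all intervals cover counting error only.

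The proteasome is the protease that degrades proteins tagged with ubiquitin, and its genes are active in nearly every cell. Its 20S core is a barrel of alpha subunits, which form the gate, and beta subunits, which form the walls and carry the catalytic sites. The 19S regulatory particle caps the barrel: its ATPases unfold the substrate, and its non-ATPase subunits form a scaffold, bind ubiquitin and remove it. Other activators can cap the barrel in its place, and dedicated chaperones assemble the complex. CTCF at a promoter can anchor a chromatin loop there, and binding by itself does not say whether the gene is active.

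The library held 19210460 tags and 42462 called peaks, each 349 bp wide, of which 41313 lay on autosomes. Tags per peak are given as normalised tags, scaled by the authors' peak caller to a library of 10000000 tags, with exact Poisson 95% intervals. Scores, folds over the surrounding 10 kb and focus ratios (the fraction of tags lying where their strand places them around the centre) are the authors' own values and only describe peaks within this list. A gene was counted when a peak centre lay within 1 kb or 5 kb of either annotated gene end, inside or outside the gene. No control library is named in the file header, so extra DNA copies cannot be told apart from binding at any one peak.

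A CTCF peak lay within 1 kb of a gene end at 17 of 44 proteasome genes (38.6%, Clopper-Pearson 95% interval 24.4 to 54.5), against 28.9% of all protein-coding autosomal genes. The interval of the proteasome genes included the share of all genes. Within 5 kb the count was 26 of 44 proteasome genes (59.1%, 43.2 to 73.7), against 54.0% of all genes. Of the 17 genes, 16 had their peak within 500 bp, which is 36.4% of the proteasome genes (22.4 to 52.2), against 20.9% of all genes. At 500 bp the interval lay above the share of all genes, and the difference was not tested. The same held for the ribosomal protein genes compared below. The median distance from a gene to its nearest peak centre was 2808 bp for proteasome genes and 4068 bp for all genes. Of the members just inside and just outside the windows, PSMG1 lay at 617 bp and PSMG2 at 1323 bp for the 1 kb window, and PSMB2 at 4752 bp and PSMB1 at 5123 bp for the 5 kb window. Further from a peak than 5 kb lay 18 members, out to 78288 bp.

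**Figure D1:**
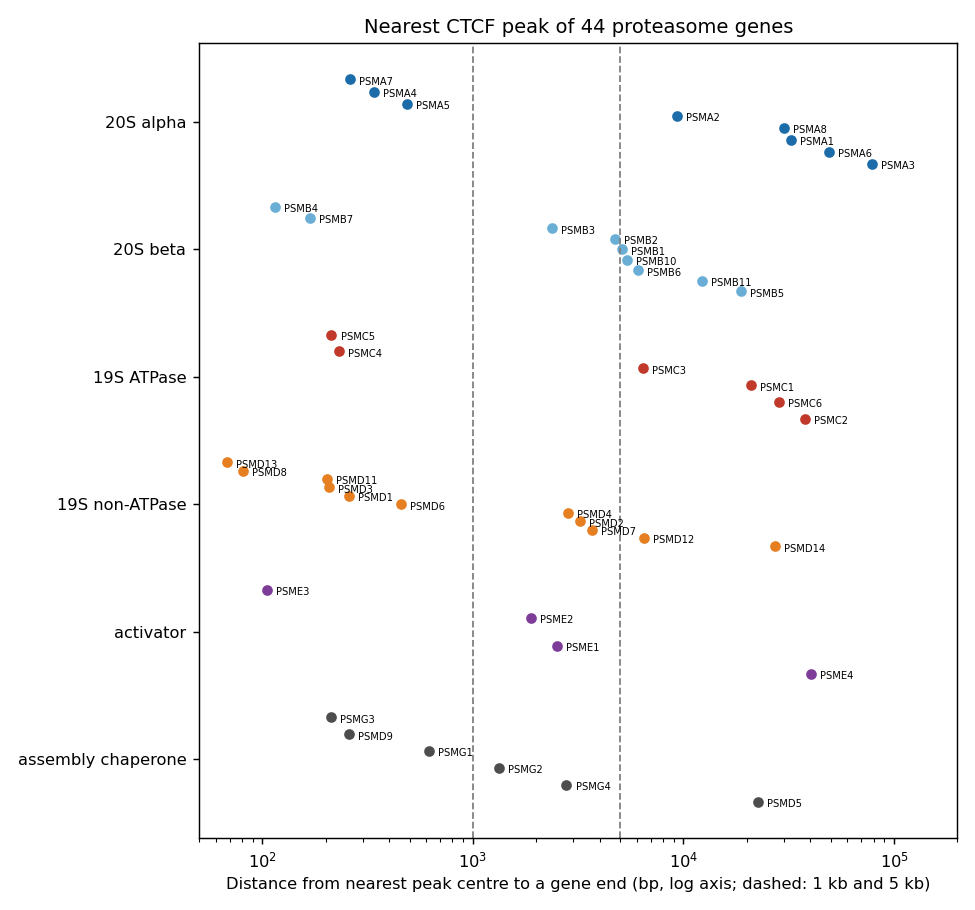
Distance from the nearest CTCF peak centre to a gene end (bp, log axis) for the 44 proteasome genes, 1 point per gene, by subunit class; dashed lines mark 1 kb and 5 kb. The points run from 68 bp at PSMD13 to 78288 bp at PSMA3, and 17 lie left of 1 kb.

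The strongest peaks at proteasome genes were at non-ATPase genes of the 19S particle. PSMD6, a subunit of the lid of that particle, had the highest: 116.3 normalised tags (101 to 132), 69.1-fold over its surroundings, with a focus ratio of 0.941. This peak (chr3:64023376-64023724, hg38) was centred 56 bp upstream of the nearest annotated start. Its centre lay inside the annotated gene, 457 bp from the upper-coordinate end, and its score stood at percentile 99.2 of all peaks. The peak of PSMD11, another lid subunit, held 87.2 normalised tags (74.7 to 102) at chr17:32444134-32444482, 202 bp upstream of the start, and stood 47.0-fold over its surroundings. Its interval lay above those of all other peaks within 1 kb of a proteasome gene end except the PSMD6 peak.

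The promoters of the 4 genes whose peak centre fell inside the promoter window with the most tags are shown next, so that the bases under these peaks can be read. Each holds 250 bases before and 50 from the annotated start, 5′ to 3′ on the gene's own strand, from RefSeq (GRCh38.p14). Capitals mark matches to the core of the CTCF motif, searched on both strands as AGGGGGC or as AGNNGGCGC, forms that can overlap. The windows are chr3:64023445-64023744, minus strand for PSMD6, chr17:32444260-32444559, plus strand for PSMD11, chr19:39970915-39971214, plus strand for PSMC4 and chr17:39980557-39980856, plus strand for PSMD3.
PSMD6: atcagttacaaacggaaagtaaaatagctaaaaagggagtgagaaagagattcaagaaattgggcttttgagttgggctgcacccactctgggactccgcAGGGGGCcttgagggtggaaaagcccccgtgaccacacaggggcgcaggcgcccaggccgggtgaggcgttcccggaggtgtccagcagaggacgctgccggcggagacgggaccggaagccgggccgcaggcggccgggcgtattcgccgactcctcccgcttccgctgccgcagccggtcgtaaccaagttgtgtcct
PSMD11: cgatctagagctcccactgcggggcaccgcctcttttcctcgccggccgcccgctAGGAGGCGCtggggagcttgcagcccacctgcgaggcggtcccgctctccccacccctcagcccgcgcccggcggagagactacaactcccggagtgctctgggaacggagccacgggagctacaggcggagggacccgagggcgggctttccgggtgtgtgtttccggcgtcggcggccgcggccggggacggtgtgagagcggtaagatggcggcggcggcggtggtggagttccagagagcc
PSMC4: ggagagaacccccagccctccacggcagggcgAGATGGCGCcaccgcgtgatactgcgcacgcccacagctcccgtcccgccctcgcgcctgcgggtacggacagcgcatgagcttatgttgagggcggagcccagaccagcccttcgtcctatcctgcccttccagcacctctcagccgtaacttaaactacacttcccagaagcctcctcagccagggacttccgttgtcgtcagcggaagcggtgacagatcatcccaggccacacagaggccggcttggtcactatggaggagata
PSMD3: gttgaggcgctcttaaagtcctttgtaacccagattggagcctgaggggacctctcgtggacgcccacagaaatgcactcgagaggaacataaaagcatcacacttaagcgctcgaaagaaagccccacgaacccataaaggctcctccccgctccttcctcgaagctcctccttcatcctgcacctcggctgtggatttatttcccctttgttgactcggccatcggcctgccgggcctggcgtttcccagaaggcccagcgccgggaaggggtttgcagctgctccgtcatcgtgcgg

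The peak centre fell on base 195 of the PSMD6 window, base 49 of PSMD11, base 19 of PSMC4 and base 44 of PSMD3, counted from the 5′ end. AGNNGGCGC matched from base 56 to 64 in PSMD11 and from base 33 to 41 in PSMC4, near the peak centre in both. In PSMD6 AGGGGGC matched from base 101 to 107, upstream of the centre at base 195 and not near it. Neither set of letters was found in the PSMD3 window. Only these exact letters were searched, so variant forms of the motif were not marked.

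Among the 11 non-ATPase subunits of the 19S particle, 6 had a peak within 1 kb (54.5%, 23.4 to 83.3), against 28.9% of all genes. Within 5 kb it was 9 (81.8%, 48.2 to 97.7), against 54.0% of all genes. The 6 with a peak within 1 kb fell into a strong and a weak set. Besides PSMD6 and PSMD11, PSMD1, a large scaffold subunit of the base of the particle, had 58.8 normalised tags (48.5 to 70.7) 258 bp upstream of its start. PSMD3, a lid subunit, had 50.8 (41.4 to 62.2) 207 bp upstream. PSMD8 and PSMD13, which are also lid subunits, had 10.2 (6.36 to 16.1) and 8.07 (4.76 to 13.5) normalised tags, at 81 bp downstream and 68 bp upstream. The intervals of the weak pair lay wholly below those of the other 4. PSMD11 also had a second peak past its far end, of 27.6 normalised tags (20.7 to 36.1) at 336 bp. Further peaks lay between 1 kb and 5 kb of an end of PSMD8 (16.7 normalised tags at 1061 bp, within 1 kb of an end of GGN), PSMD13 (24.2 at 2100 bp) and PSMD1 (71.8 at 3813 bp).

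The remaining non-ATPase genes had no peak within 1 kb. PSMD4, a ubiquitin receptor, had its nearest at 2834 bp with 27.1 normalised tags, PSMD2 at 3242 bp inside the gene with 20.3, and PSMD7 at 3682 bp with 33.6. PSMD12 had its nearest at 6507 bp, inside the gene. PSMD14, the enzyme that cuts ubiquitin from the substrate, was 27334 bp from its nearest peak.

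The ATPase genes divided into those with a peak at the start and those with none nearby. PSMC4 carried 53.6 normalised tags (43.8 to 65.0) in a peak 232 bp upstream of its start, 31.0-fold over its surroundings. PSMC5 had 26.3 (19.8 to 34.9) 77 bp upstream of the nearest of its annotated starts, and a further peak of 48.4 lay 3026 bp past its other end. None of the other 4, PSMC1, PSMC2, PSMC3 and PSMC6, had a peak within 5 kb, and their nearest peaks lay 21027, 37657, 6456 and 28478 bp away. The ATPase count was thus 2 of 6 at both windows (33.3%, 4.33 to 77.7), against 28.9% of all genes within 1 kb and 54.0% within 5 kb.

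Of the 8 alpha genes of the 20S core, 3 had a peak within 1 kb (37.5%, 8.52 to 75.5), against 28.9% of all genes. The count was the same within 5 kb, against 54.0% of all genes. PSMA7 had 37.2 normalised tags (28.9 to 46.6) 261 bp inside its lower-coordinate end, and a further peak of 11.7 lay 1422 bp inside its other end. PSMA5 had 15.9 (11.0 to 22.9) 485 bp inside its far end, and PSMA4 had 11.5 (7.18 to 17.3) 42 bp upstream of the nearest of its annotated starts. None of the other 5 had a peak within 5 kb of a gene end. The nearest peak centre to an end lay at 9283 bp for PSMA2, at 30080 bp for PSMA8, whose product is the testis form of an alpha subunit, and at 48882 bp for PSMA6. PSMA1 had a peak of 21.6 normalised tags inside the gene, 32363 bp from its nearer end. PSMA3 was the most remote of all members at 78288 bp.

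The PSMA4 and PSMA6 promoters are shown as a contrast, since both hold AGGGGGC while their peaks differ: PSMA4 (chr15:78540536-78540835, plus strand) had a weak peak centred on base 209, and the nearest peak to the PSMA6 start (chr14:35292067-35292366, plus strand) was 62641 bp away. The motif ran from base 229 to 235 in PSMA4 and from base 226 to 232 in PSMA6.
PSMA4: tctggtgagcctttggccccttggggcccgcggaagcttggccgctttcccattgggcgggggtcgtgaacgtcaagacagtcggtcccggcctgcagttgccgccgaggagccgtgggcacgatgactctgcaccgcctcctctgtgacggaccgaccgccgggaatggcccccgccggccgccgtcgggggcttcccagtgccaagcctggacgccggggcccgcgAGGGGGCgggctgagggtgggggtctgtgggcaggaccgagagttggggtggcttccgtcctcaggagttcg
PSMA6: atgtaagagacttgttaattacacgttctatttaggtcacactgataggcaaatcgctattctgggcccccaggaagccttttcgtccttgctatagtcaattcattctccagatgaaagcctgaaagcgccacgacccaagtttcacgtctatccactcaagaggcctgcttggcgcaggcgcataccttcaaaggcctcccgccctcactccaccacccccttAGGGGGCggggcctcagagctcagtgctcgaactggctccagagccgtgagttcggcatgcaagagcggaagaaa

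Of the 9 beta genes, 2 had a peak within 1 kb (22.2%, 2.81 to 60.0), against 28.9% of all genes. Within 5 kb it was 4 (44.4%, 13.7 to 78.8), against 54.0% of all genes. PSMB7, which encodes the subunit with trypsin-like activity, had 46.6 normalised tags (37.7 to 57.6) 169 bp outside its upper-coordinate end. PSMB4, a subunit without catalytic activity, had 13.0 (8.42 to 19.2) 115 bp upstream of its start. The intervals of these peaks did not overlap. Further peaks within 5 kb of a PSMB7 end held 73.9 normalised tags at 4285 bp, 14.1 at 4788 bp and 13.5 at 4975 bp. PSMB3 and PSMB2 had theirs at 2367 and 4752 bp, with 14.3 and 9.37 normalised tags. PSMB1, PSMB10 and PSMB6 fell just past 5 kb, at 5123, 5412 and 6073 bp, beside stronger peaks of 43.2, 41.9 and 88.2 normalised tags. PSMB6 encodes the subunit with caspase-like activity. PSMB5, the subunit with chymotrypsin-like activity and a target of proteasome inhibitor drugs, lay 18824 bp from a peak, and PSMB11, the thymus form, 12276 bp.

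Of the 4 activator genes, 1 had a peak within 1 kb (25.0%, 0.631 to 80.6), against 28.9% of all genes. PSME3, the nuclear activator, had a pair of peaks at opposite ends: 8.33 normalised tags (4.76 to 13.5) 105 bp downstream of its start, and 44.5 (35.3 to 54.7) 201 bp inside its far end. PSME1 and PSME2, which encode the activator induced by interferon, lie close together and had a single weak peak of 8.85 normalised tags between them, 2514 bp from PSME1 and 1889 bp from PSME2. This peak also lay within 1 kb of an end of EMC9. It brought the activator count within 5 kb to 3 of 4 (75.0%, 19.4 to 99.4), against 54.0% of all genes. PSME4 was 40249 bp from its nearest peak.

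Of the 6 assembly chaperone genes, 3 had a peak within 1 kb (50.0%, 11.8 to 88.2), against 28.9% of all genes. Within 5 kb it was 5 (83.3%, 35.9 to 99.6), against 54.0% of all genes. PSMD9, a chaperone of the ATPase ring, had 45.5 normalised tags (36.3 to 55.9) 258 bp upstream of its start. PSMG1 and PSMG3, chaperones of the alpha ring, had 15.4 (10.5 to 22.3) inside the far end and 11.7 (7.18 to 17.3) outside the upper-coordinate end. Further peaks lay inside PSMD9, with 14.3 normalised tags 1358 bp from its far end, and inside PSMG1, with 11.7 at 2692 bp from its upper-coordinate end. PSMG2 had peaks of 23.4 and 27.8 normalised tags at 1323 and 1487 bp, and PSMG4 had 48.2 at 2782 bp. PSMD5 lay 22537 bp from its nearest peak.

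**Figure D2:**
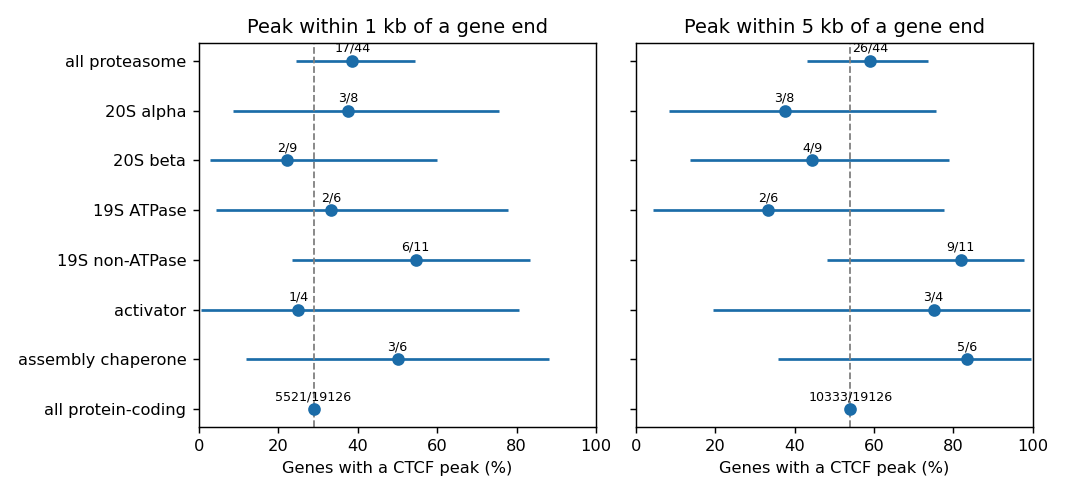
Share of genes (%) with a CTCF peak centre within 1 kb (left) and 5 kb (right) of a gene end, for the 44 proteasome genes, their 6 classes and all 19126 protein-coding autosomal genes; bars are Clopper-Pearson 95% intervals and dashed lines the share of all genes. Within 1 kb every class interval spans the 28.9% of all genes, and within 5 kb every class interval spans the 54.0%.

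Peaks at or above the median score of the list (39.0) were found within 1 kb of 10 of 44 proteasome genes (22.7%, 11.5 to 37.8), against 15.6% of all genes. Within 5 kb the count was 16 of 44 (36.4%, 22.4 to 52.2), against 34.2% of all genes. The 19S genes held 10 of these 16, out of 17 genes (58.8%, 32.9 to 81.6), and the 20S core genes held 2 of 17 (11.8%, 1.46 to 36.4). These intervals overlapped, and both included the 34.2% of all genes. Within the 19S particle 8 of 11 non-ATPase genes had such a peak (72.7%, 39.0 to 94.0) and 2 of 6 ATPase genes (33.3%, 4.33 to 77.7). The non-ATPase interval lay above the 34.2% of all genes and the ATPase interval included it, and neither difference was tested. The non-ATPase count included PSMD2, whose peak had a score of 39.0, exactly at the cut-off. Within 1 kb such a peak lay at 4 of 11 non-ATPase genes (36.4%, 10.9 to 69.2), and that interval included the 15.6% of all genes. This contrast between 19S and 20S genes was chosen after its values were seen and was not tested. With peaks of lower score included, the counts within 5 kb were 11 of 17 for 19S genes (64.7%, 38.3 to 85.8) and 7 of 17 for 20S genes (41.2%, 18.4 to 67.1), and these intervals overlapped as well.

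The 19 peaks within 1 kb of a proteasome gene end held a median of 27.6 normalised tags, against 22.6 at the 5150 peaks within 1 kb of any protein-coding gene end and 20.3 at all autosomal peaks. They ran from 8.07 to 116.3 normalised tags. The 11 peaks at or above the median score held 26.3 to 116.3 normalised tags with focus ratios of 0.726 to 0.941, and the other 8 held 8.07 to 15.9 with focus ratios of 0.646 to 0.857. No peak held between 15.9 and 26.3, though the intervals on either side of that gap, such as those of PSMC5 and PSMA5, overlapped. The local background, computed as normalised tags divided by the fold, was 1.12 to 2.04 at 16 of the 19 peaks. It was 5.27 at PSMB7, 5.04 at PSMD1 and 3.53 at PSMD9, against a median of 1.87 at peaks near any gene end. PSMB7 and PSMD1 each had another strong peak within 5 kb, of 73.9 and 71.8 normalised tags, and PSMD9 had none. The part of the raised background in these 3 peaks' tag counts was not tested.

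**Figure D3:**
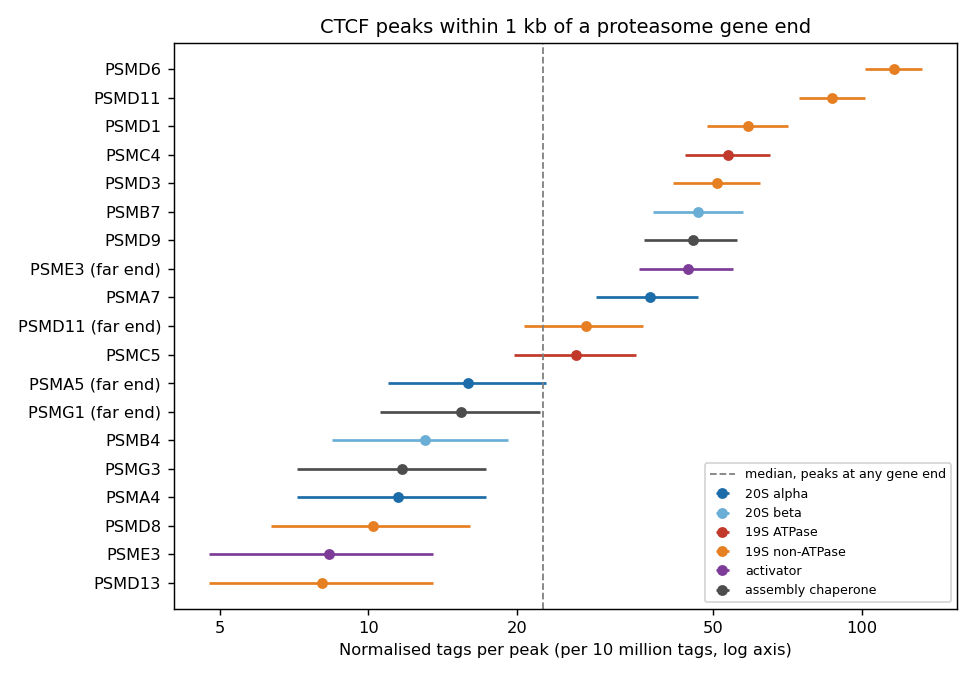
Normalised tags (per 10000000 tags, log axis) of the 19 CTCF peaks within 1 kb of a proteasome gene end, 1 row per peak, coloured by subunit class; bars are exact Poisson 95% intervals and the dashed line the 22.6 normalised tags that were the median at any gene end. PSMD6 and PSMD11 lie furthest right, and PSMD13 lies furthest left at 8.07.

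Strand and start were taken from the RefSeq promoter table, which matched 38 of the 44 genes; PSMA7, PSMB1, PSMB6, PSMB7, PSMD4 and PSMG3 were not matched by it. A peak lay within 1 kb of an annotated start at 12 of 38 proteasome genes (31.6%, 17.5 to 48.7), against 27.3% of 15101 genes. At the far end it was 4 of 38 (10.5%, 2.94 to 24.8), against 6.85% of genes. The far-end genes were PSMA5, PSMD11, PSME3 and PSMG1. PSMD11 and PSME3 had peaks at both ends.

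All 12 start peaks were centred within 258 bp of the nearest annotated start, 10 of them upstream and 2, at PSMD8 and PSME3, downstream. The upstream peaks of PSMA4, PSMC5 and PSMD6 nevertheless lay inside the annotated gene, 339, 213 and 457 bp from its start-side end. Those 151 to 300 bp upstream were PSMD1, PSMD9, PSMC4, PSMD3 and PSMD11, with 45.5 to 87.2 normalised tags and a median of 53.6. The 578 genes with a start peak in the same interval had a median of 25.2, with quartiles of 12.2 and 54.6. PSMD9, PSMD3 and PSMC4 lay between those quartiles, and PSMD1 and PSMD11 lay above them. Closer in, up to 150 bp upstream, PSMD6 and PSMC5 held 116.3 and 26.3 and PSMB4, PSMA4 and PSMD13 8.07 to 13.0, a median of 13.0 for the 5 members against 33.6 for 1039 genes. Downstream within 150 bp the members held 8.33 and 10.2 and 549 genes had a median of 12.5. Both downstream member peaks were weak, and the median of genes in general was low there too, but 2 members cannot show a pattern for the family. The upstream members included both the strongest and the weakest start peaks of the family.

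**Figure D4:**
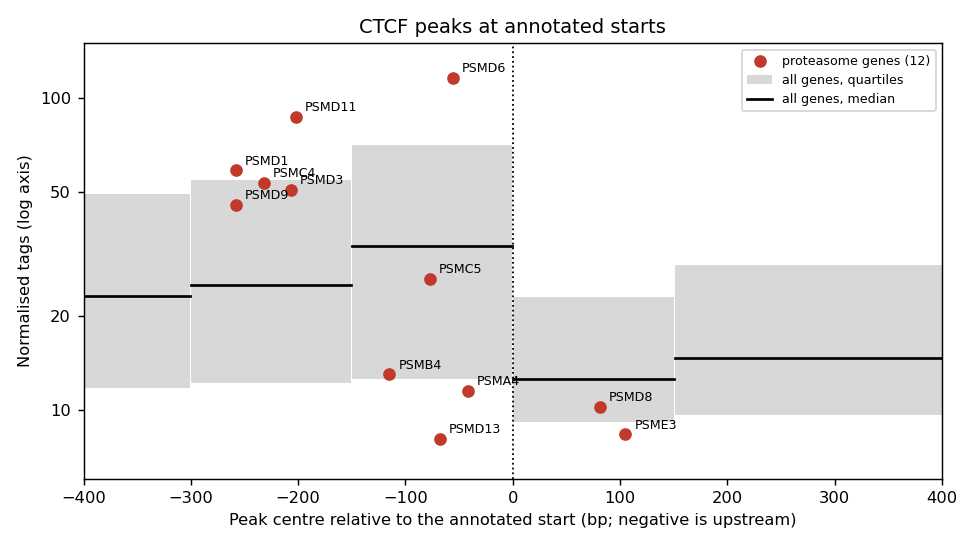
Normalised tags (log axis) against the position of the peak centre relative to the nearest annotated start (bp, negative upstream) for the 12 proteasome genes with a start peak (points); black lines are medians and grey bands the range between the quartiles of all genes by interval, the outer intervals reaching to 1000 bp. The 5 points left of -150 bp lie between 45.5 and 87.2.

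Of 45 RefSeq promoters at the 38 matched genes, 8 held a peak centre, those of PSMA4, PSMB4, PSMC4, PSMC5, PSMD3, PSMD6, PSMD11 and PSMD13. The CTCF core form AGGGGGC was found in 6 of 45 member promoters, against 17.4% of 21156 promoters of all genes. They belonged to 5 of the 38 members, PSMA4, PSMA6, PSMB11, PSMD6 and PSME2. The form AGNNGGCGC was found in 7 of 45 member promoters, against 12.9% of all promoters. They belonged to 7 members, PSMB2, PSMC4, PSMC5, PSMD11, PSMD14, PSME1 and PSME4. Among all promoters, either form was found in 50.9% of the 1811 that held a peak centre and in 23.5% of the others. Of the 8 member promoters with a peak centre, 5 held such a match at any distance from the centre, those of PSMA4, PSMC4, PSMC5, PSMD6 and PSMD11. The antioxidant response element, the site of the transcription factor NFE2L1 that raises proteasome gene expression when the proteasome is inhibited, was searched on both strands as TGACNNNGC. It was found in 14 of 45 member promoters, at 14 of 38 members, against 13.8% of all promoters. Of these members, PSMA4, PSMC4, PSMC5, PSMD1, PSMD3 and PSMD9 had a peak within 1 kb of a start. Of the 8 member promoters that held a peak centre, 4 held the element, those of PSMA4, PSMC4, PSMC5 and PSMD3. Among all promoters the element was found in 15.0% of those that held a peak centre and in 13.6% of the others. This overlap was not tested. A match is a description of letters and not a measured binding site.

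Another protein-coding gene's end lay within 1 kb of an end of 17 of 44 proteasome genes (38.6%), against 29.0% of all genes. Among these 17, a CTCF peak lay within 1 kb of an end at 9 (52.9%, 27.8 to 77.0), against 36.8% of all genes with such a neighbour. Among the 27 without a close neighbour it was 8 (29.6%, 13.8 to 50.2), against 25.6% of all genes without one. The peak itself lay within 1 kb of the neighbour's end at 3 members: PSMD13 beside SIRT3, PSMD9 beside HPD and PSMC5 beside FTSJ3. These peaks cannot be assigned to either gene of the pair. The median proteasome gene was 14480 bp long, against 24476.5 bp for all genes.

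By chromosome, the 8 members on chromosome 14 (PSMA3, PSMA6, PSMB5, PSMB11, PSMC1, PSMC6, PSME1 and PSME2) had no peak within 1 kb, against 29.6% of 605 genes on that chromosome. Their nearest peaks lay 1889 to 78288 bp away. On chromosome 17, 4 of 7 members had one, against 29.8% of 1169 genes. The median local background of peaks was 1.47 on chromosome 14 and 1.71 on chromosome 17, and its part in these counts was not tested. The chromosomes were singled out after their counts were seen, because they hold the most members. A peak centre lay anywhere inside the gene at 18 of 44 members (40.9%, 26.3 to 56.8), against 49.7% of all genes. These were 27 peaks in all, with the most at PSMB7, which held 4.

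Genes that work with the proteasome but bear other names gave a like share within 1 kb. Of 23 autosomal genes on a list of cofactors, regulators and ubiquitin genes, 9 had a peak within 1 kb (39.1%, 19.7 to 61.5), against 28.9% of all genes. Within 500 bp it was 6 (26.1%, 10.2 to 48.4), against 36.4% of proteasome genes and 20.9% of all genes. ADRM1, a ubiquitin receptor of the 19S particle, had the strongest, 114.8 normalised tags (100 to 131) 157 bp upstream of its start, with another of 112.2 at 917 bp, on a local background of 7.20 and 7.35. UBQLN4, a shuttle factor, had 61.4, in a peak that also lay within 1 kb of an end of LAMTOR2. VCP, the unfoldase, had 23.2. ZFAND5 had 17.7, PAAF1 15.6, POMP, the assembly chaperone of the core, 10.2, and UBQLN1 and the deubiquitinase USP14 8.85 each. NFE2L1 had none, with its nearest peak at 7174 bp.

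Ribosomes are other large complexes needed in every cell. Their protein genes, taken by symbol with like-named paralogues not left out, gave shares close by. Within 1 kb the share was 38.6% for proteasome genes, against 40.2% (29.6 to 51.7) for 82 cytosolic ribosomal protein genes and 42.9% (31.6 to 54.6) for 77 mitochondrial ones. Within 5 kb it was 59.1% for proteasome genes, against 68.3% (57.1 to 78.1) and 68.8% (57.3 to 78.9). Within 500 bp it was 36.4% for proteasome genes, against 34.1% (24.0 to 45.4) and 33.8% (23.4 to 45.4). Both ribosomal intervals at 500 bp lay above the 20.9% of all genes, as the proteasome interval did. The differences between these families were not tested, and their intervals overlapped in each case.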

How the data were processed

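CTCF ChIP-seq of 4 samples is listed, and the 1 deposited peak list used, of asynchronous replicate 1, was called on that library alone, per the file headers. The submitters' processing notes name Bowtie2, HOMER and hg38 without versions. findPeaks ran, per the file headers, in its factor style with no control named, a false discovery rate of 0.001 (15 tags), 4-fold over the local 10 kb and a local p-value of 1e-04. Deposited values were the tag signal scaled to 10000000 tags, the focus ratio (a fraction), the score, the fold over the local region (a ratio), the clonal fold and the local p-value, all by the authors' caller; the last 2 were not used.

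Gene ends came from a RefSeq table (GRCh38.p14, the same chromosomes as hg38), and starts, strands and promoters from its promoter table. The distance search was tested on simulated peaks. Members and lists were chosen with earlier results of these data known, and motifs after promoter matches were counted. Every member with a peak within 1 kb is named with its strongest peak there, those within 5 kb with their nearest, and the others with a distance; further peaks within 5 kb are added where present. Of 24 pathway genes, 23 are autosomal. The values of 1 pathway gene with a peak are not reported here. Sequence used no genome. Repeated tags can make Poisson intervals too narrow. No control sample gave a background, so members are set beside all genes. Alternatives varied the window, score, point measured, gene end, gene set and merging. Software was Python 3.11.15 with scipy 1.17.1, numpy 2.4.6, matplotlib 3.10.9 and pandas 2.3.3.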

Additional observations from a re-analysis of the deposited data

How the results depend on the processing

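Counts within 1 kb of a proteasome gene end stayed within 1.5 times of 17 with windows of 500 bp or 2 kb, with peak edges, with annotated starts only, with PSMB8, PSMB9 and PSMD10 added, and without PSMA8 and PSMB11, an alternative chosen after seeing the data. With peaks under the median score dropped, 10 genes remained within 1 kb and 16 within 5 kb, against 2992 of all genes within 1 kb, 4 pathway genes remained, and the median was 46.6 normalised tags. That setting left 1 alpha and 1 beta gene at both windows, 1 activator within 5 kb, and 1 assembly chaperone gene within 1 kb and 3 within 5 kb. Annotated starts only gave 15 proteasome genes within 5 kb, 1 alpha gene at both windows, 1 beta gene within 1 kb and 2 within 5 kb, 1 activator within 5 kb, and 1 assembly chaperone gene within 1 kb and 3 within 5 kb; it covers 38 members. The beta count within 5 kb was 2 with a window of 2 kb and 7 with 10 kb, and the activator count within 1 kb was 2 with 2 kb. No other count moved past 1.5 times. A threshold of 15 tags limits detection, so a gene without a peak is not shown to be unbound. No paired analysis was possible because 1 library was analysed, and for the same reason no replicate could be left out.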
